A study of Mus musculus with 9 samples.

Results

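Mitochondrial ribosomal protein genes were followed across 3 levels of MYC in cells of mouse T-ALL (acute lymphoblastic leukaemia of T cells). They were taken as the protein-coding genes whose mouse symbol in GENCODE release M21 begins with Mrpl or Mrps followed by a digit, a rule that used no measured value and gave 78 of the 53380 rows in each table. The cells were grown in culture and derived from tumours of FVB/N mice carrying EμSRα-tTA and tet-O-MYC. The human MYC transgene is thus driven in lymphoid cells and is shut off by doxycycline. The 9 libraries comprised 3 of MYC on (mock treatment), 3 of MYC intermediate (20 pg/mL doxycycline) and 3 of MYC off (500 pg/mL doxycycline), each collected 48 hours after treatment. All groups therefore carried both transgenes. The sample titles do not say how many lines the libraries came from. Doxycycline is itself a tetracycline, a class of antibiotic that binds bacterial ribosomes and, at far higher amounts, mitochondrial ones. No library received doxycycline without a change in MYC, so the MYC level and the exposure to doxycycline cannot be told apart.

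The mitochondrial ribosome, or mitoribosome, translates the few mRNAs made from mitochondrial DNA, which encode core subunits of the respiratory chain and of ATP synthase. Its rRNAs come from the mitochondrial genome, while all of its proteins are encoded in the nucleus, made in the cytosol and imported. The small subunit reads the mRNA and the large subunit joins the amino acids. Some proteins descend from those of bacterial ribosomes and others are found only in mitochondria. MYC is a transcription factor that binds DNA as a dimer with MAX, with the E-box CACGTG as its preferred site, and is known for raising the genes of cytosolic ribosome production and of mitochondrial growth.

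Of the 78 members, 26 encode small subunit proteins and 51 large subunit proteins. Mrps30 and Mrps18a count among the latter in spite of their names, since their products sit in the large subunit. The remaining member, Mrps36, encodes a part of the 2-oxoglutarate dehydrogenase complex and no mitoribosome protein. By their standard names, 46 of the proteins have a bacterial counterpart and 31 are specific to mitochondria. The genes lie on 17 chromosomes.

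Promoters were searched for the E-box because it is the site that MYC with MAX prefers. RefSeq windows of GRCm38.p6, reaching from 250 bases before to 50 bases after a transcription start, were at hand for 69 members. The 6 letters CACGTG, which read the same on both strands, occurred in the windows of 5 of the 69 members (7.25%). The share was 8.09% of the 27025 genes with a window and 11.8% of the 9387 of these that were tested for expression. The share in members was thus near that of promoters in general. The 5 stretches are shown up to the RefSeq transcription start at most, with the E-box in capitals. They are chr13:73330936-73331001 (plus strand) for Mrpl36, chr17:46646060-46646125 (plus strand) for Mrpl2, chr4:107066993-107067058 (minus strand) for Mrpl37, chr4:155802815-155802877 (plus strand) for Mrpl20 and chr5:100798566-100798631 (plus strand) for Mrps18c.
Mrpl36: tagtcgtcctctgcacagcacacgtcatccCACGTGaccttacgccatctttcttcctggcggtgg
Mrpl2: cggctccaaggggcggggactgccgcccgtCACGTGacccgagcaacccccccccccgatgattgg
Mrpl37: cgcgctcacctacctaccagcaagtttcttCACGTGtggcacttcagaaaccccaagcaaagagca
Mrpl20: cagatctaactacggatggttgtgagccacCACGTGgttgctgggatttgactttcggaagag
Mrps18c: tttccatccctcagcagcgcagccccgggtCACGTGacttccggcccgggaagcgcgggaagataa

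The libraries held 18705516 to 39678799 counts. The hMYC transcript stood at 1260 ± 75.4 CPM (counts relative to the library total) in MYC on, 408.3 ± 23.01 in MYC intermediate, against 3.785 ± 0.454 in MYC off (mean ± SD, n = 3 each), in the order of the labels. T cell markers such as Lck (1589 ± 45.6 CPM in MYC on) and Cd3e (313 ± 7.06) were abundant, and none of the 16 was at 0. Summed over a list, markers of B cells (6 genes, 4 at 0), of erythroid cells and platelets (7 genes, 4 at 0) and of stroma, endothelium and epithelium (8 genes, 4 at 0) stayed under 0.3 CPM in each library. Of 8 myeloid markers 3 were at 0, and their sum ran from 26.9 to 31.3 CPM in MYC on, from 32.6 to 36.2 in MYC intermediate, against from 41.2 to 44.1 in MYC off. The summed T cell markers moved with the groups as well, from 9351 to 9817 CPM in MYC on, 14475 to 16132 in MYC intermediate, against 17818 to 18881 in MYC off. Their part in the results that follow was not tested. In bulk libraries, fewer cells of a type and less RNA per cell cannot be told apart.

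Together the members took 0.560% ± 0.0165 of all counts in MYC on, 0.470% ± 0.0148 in MYC intermediate, against 0.374% ± 0.0157 in MYC off (SD, n = 3 each). The libraries of the 3 groups did not overlap, with 0.547% to 0.579%, 0.454% to 0.483% and 0.358% to 0.389%. Per unit of gene length the order was the same. The members' summed TPM (counts scaled by gene length and by library) was 8768 ± 226, 7292 ± 195 and 5851 ± 207. Every level is relative to the total of its library, since RNA per cell was not measured.

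MYC on was first compared with MYC off, to ask how the mitoribosome genes differ between the extremes of MYC. Of the 77 members tested, 59 (76.6%) had more reads in MYC on, 1 had fewer and 17 were not called (edgeR quasi-likelihood test, adjusted p under 0.01). Among all 14098 genes tested, 27.4% were called higher and 27.5% lower. The median log2 fold change of the members was 0.61, beside −0.03 over all genes. In 17 members the called difference exceeded 1 on the log2 scale, which 10.8% of all genes did in that direction. The 3 libraries of MYC on lay above all 3 of MYC off in 62 members, against 32.8% of all genes, and below them in 2 members (Mrpl58 and Mrps26), against 37.2% of all genes. Nothing in the labels tells separate cultures from repeats of 1 culture, and the p-values therefore cover the spread among these libraries alone.

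**Figure D1:**
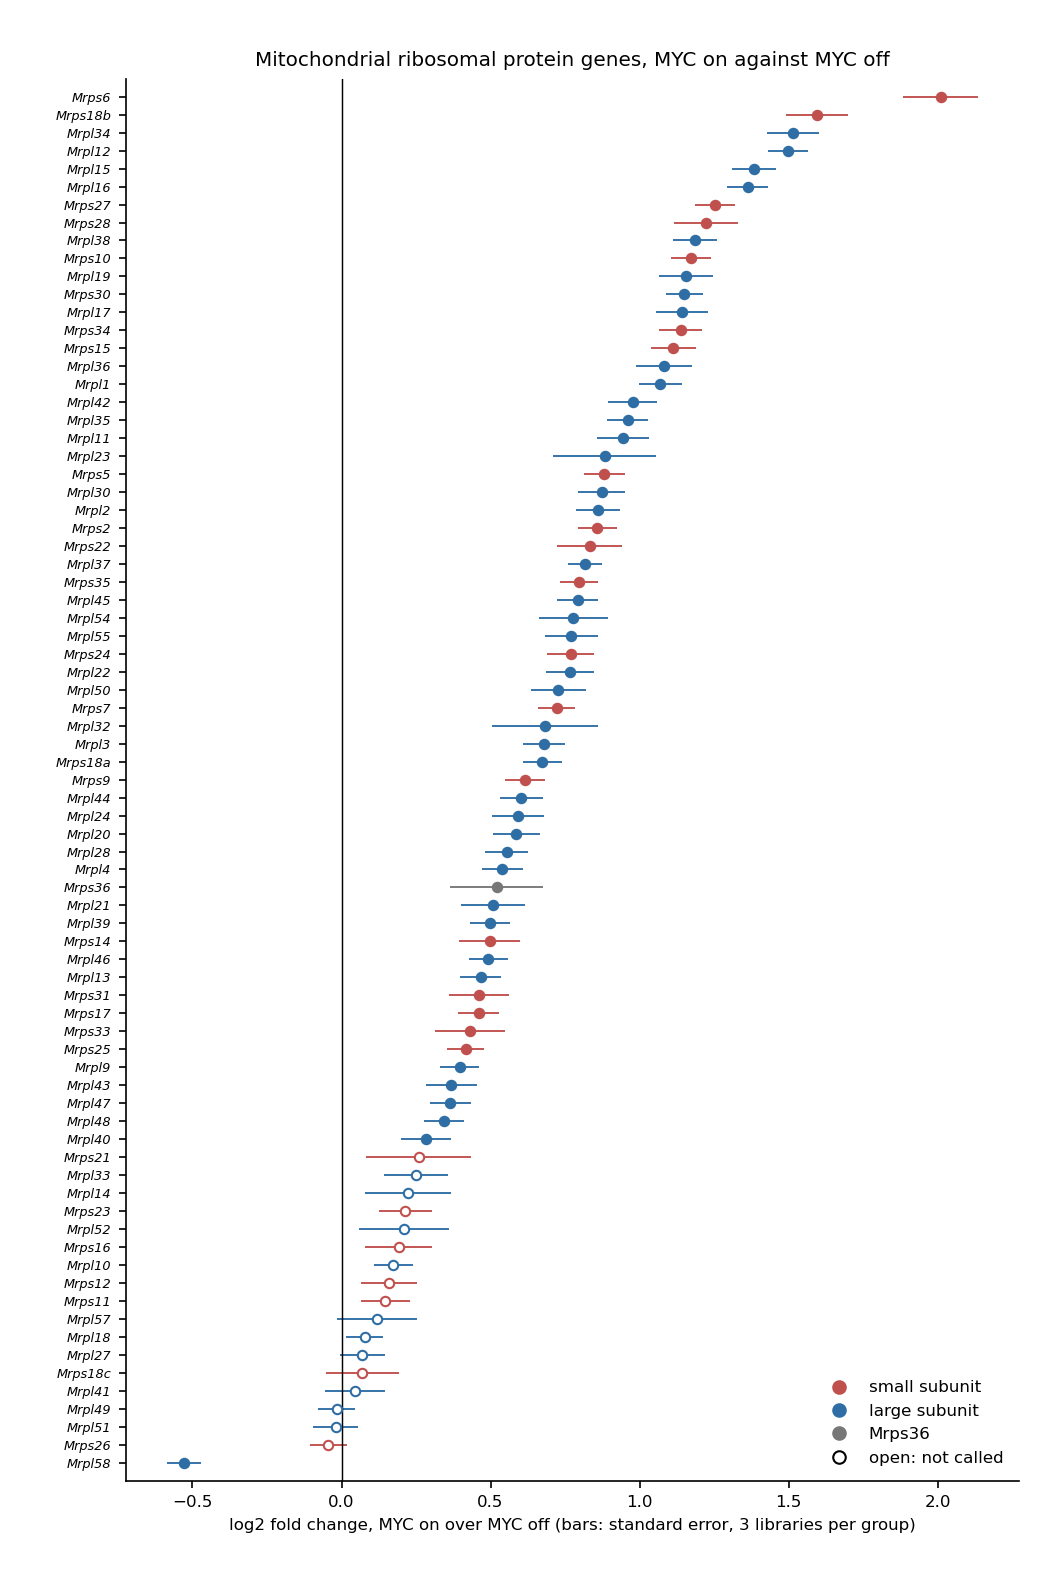
The log2 fold change of MYC on over MYC off is plotted for each of the 77 tested members, ordered by its value, with its standard error as the bar. Colours mark small subunit members, large subunit members and Mrps36, and open points mark the 17 members not called. Mrps6 stands at the top with 2.01 and Mrpl58 alone is called below 0, at −0.53.

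Mrps6, a small subunit protein with a bacterial counterpart, had the largest difference. Its level was 24.5, 25.1 and 23.6 CPM in the 3 MYC on libraries, 16.8, 13.3 and 12.6 in MYC intermediate, against 6.88, 5.83 and 5.76 in MYC off. MYC off thus retained 25.2% of the MYC on mean, and no 2 groups overlapped (log2 fold change 2.01 ± 0.13 (SE), adjusted p = 1.3e-09). Exons of Mrps6 share bases with Slc5a3, a myo-inositol transporter gene, which stood at 4.11 ± 1.10 CPM in MYC on and 0.945 ± 0.432 in MYC off and was also called higher.

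Mrps18b followed, with 90.7, 77.6 and 90.1 CPM in MYC on, 48.6, 60.7 and 55.0 in MYC intermediate, against 32.2, 25.9 and 29.4 in MYC off (log2 fold change 1.59 ± 0.10, adjusted p = 1.9e-09). In Mrps27, a mitochondria-specific protein of the small subunit, the 3 MYC on libraries held 92.9, 88.96 and 91.1 CPM and those of MYC off 40.7, 38.4 and 38.1. MYC on and MYC off were well apart in both genes. Mrps28 and Mrps10, small subunit proteins with bacterial counterparts, differed by 1.22 ± 0.11 and 1.17 ± 0.07 on the log2 scale. Over the small subunit as a whole, 19 of 26 members were higher in MYC on and none was lower, with a median log2 fold change of 0.67.

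Among large subunit genes, Mrpl34 held 56.6, 54.3 and 57.3 CPM in MYC on, 36.4, 35.1 and 29.9 in MYC intermediate, against 20.7, 20.0 and 19.4 in MYC off (log2 fold change 1.51 ± 0.09, adjusted p = 4.8e-10). Mrpl16 was the most even of the leading members, with 52.7, 53.6 and 51.6 CPM in MYC on, 33.1, 33.7 and 33.2 in MYC intermediate, against 20.8, 20.9 and 21.1 in MYC off. The spread within each of its groups was small beside the gaps between them (log2 fold change 1.36 ± 0.07). Mrpl15 differed by 1.38 ± 0.07 and Mrpl38 by 1.19 ± 0.07. In the large subunit 39 of 50 tested members were higher and 1 was lower, with a median of 0.64.

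The proteins around the stalk, where translation factors dock on the large subunit, were not all called. Mrpl12, whose copies form the stalk itself, fell from 178, 159 and 165 CPM in MYC on to 98.4, 107 and 97.3 in MYC intermediate, against 62.8, 61.2 and 57.7 in MYC off (log2 fold change 1.5 ± 0.07, adjusted p = 3.1e-11). Mrpl11, at the base of the stalk, held 47.8, 42.4 and 40.6 CPM in MYC on and 24.3, 23.6 and 21.6 in MYC off (0.94 ± 0.09, adjusted p = 1.1e-07). Both genes were lower in MYC off in each library. Mrpl10, which anchors Mrpl12 to the ribosome, had 76.3, 71.0 and 78.4 CPM in MYC on and 70.0, 67.9 and 67.0 in MYC off. It was not called (0.17 ± 0.07, adjusted p = 0.029), although its MYC on libraries all lay above those of MYC off. The differences between these 3 genes were not tested.

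The 3 relatives of bacterial protein S18 also had unlike values, whose differences were not tested. Mrps18b, in the small subunit, had the log2 fold change of 1.59 given above. Mrps18a, in the large subunit, held 74.2, 75.1 and 70.3 CPM in MYC on, 58.4, 60.2 and 55.9 in MYC intermediate, against 44.9, 49.4 and 46.6 in MYC off (0.67 ± 0.06, adjusted p = 1.8e-07). Mrps18c, the counterpart of S18 proper, had 44.4, 41.1 and 40.2 CPM in MYC on and 45.2, 41.6 and 35.4 in MYC off (0.07 ± 0.12, adjusted p = 0.64). Its groups overlapped, and its MYC intermediate libraries spread from 37.5 to 53.4 CPM. Mrps18c is 1 of the 5 members with an E-box in the window shown above, while no E-box was found in the window of Mrps18b.

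**Figure D2:**
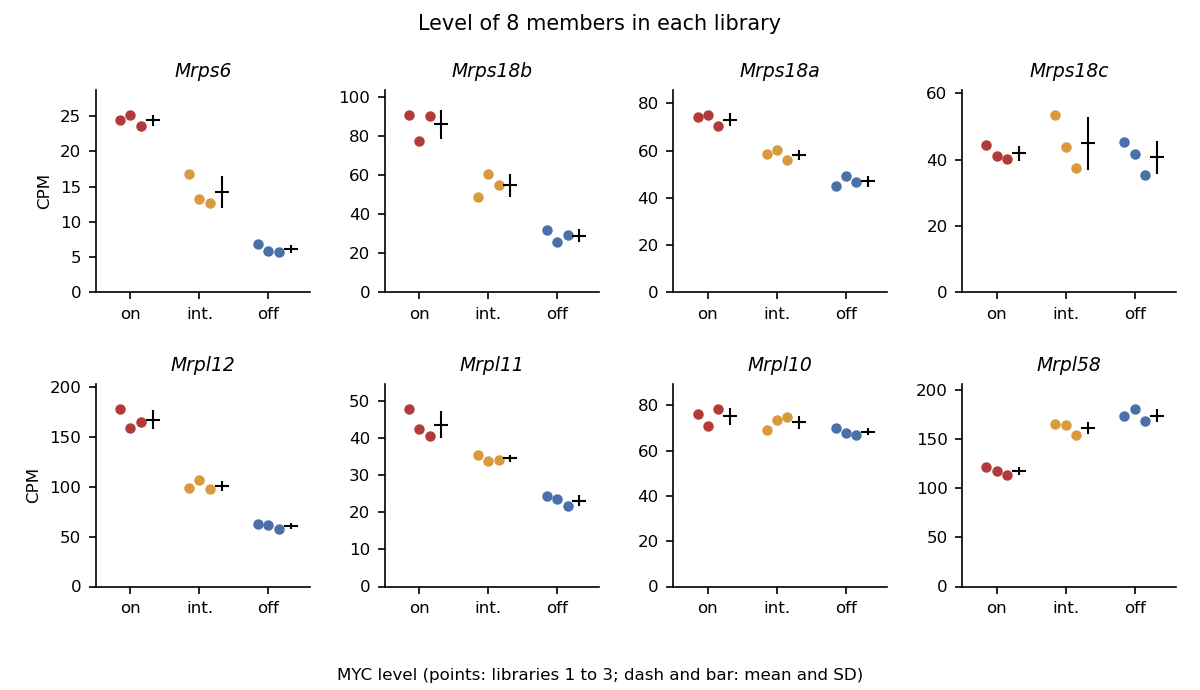
CPM are plotted for 8 members in each of the 9 libraries, grouped by MYC level, with the mean and SD of each group beside the points. Mrps6, Mrps18b, Mrps18a, Mrpl12 and Mrpl11 step down from MYC on to MYC off, Mrps18c and Mrpl10 stay near level, and Mrpl58 steps up from MYC on, at 113 to 122 CPM, to MYC off, at 168 to 180 CPM.

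Mrpl58 was the only member called lower in MYC on. It encodes a peptidyl-tRNA hydrolase that frees stalled peptides and is also built into the large subunit. Its level was 122, 118 and 113 CPM in MYC on, 166, 164 and 154 in MYC intermediate, against 173, 180 and 168 in MYC off. MYC on lay below the other groups in every library, and MYC off stood at 148% of the MYC on mean (log2 fold change −0.53 ± 0.06, adjusted p = 8.9e-07). The difference between MYC on and MYC intermediate was called too (−0.47 ± 0.06, adjusted p = 8.7e-06), and that between MYC intermediate and MYC off was not (−0.06 ± 0.06, adjusted p = 0.43). The gene lies at chr11:115403752-115412674 on the plus strand, and 2 bases of its exons are shared with Ict1os, which was also lower in MYC on (33.5 ± 1.62 against 49.2 ± 2.36 CPM in MYC off).

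Of the other members with a special place in the ribosome, Mrpl45, which lies by the exit of the nascent chain at the inner membrane, was higher in MYC on (96.9 ± 4.62 CPM against 57.2 ± 2.495 in MYC off, log2 fold change 0.79 ± 0.07, adjusted p = 5.4e-08). Mrps30 was higher as well (155 ± 7.29 against 71.4 ± 4.15 CPM, log2 fold change 1.15 ± 0.06). Mrps12, at the decoding centre, was not called: its libraries held 34.5, 31.4 and 33.4 CPM in MYC on and 32.6, 29.9 and 28.4 in MYC off, and the groups overlapped (0.16 ± 0.09, adjusted p = 0.14). Mrps36, which is no ribosomal protein, stood just inside the threshold with 12.6, 14.3 and 12.5 CPM in MYC on against 9.85, 9.28 and 8.87 in MYC off (0.52 ± 0.16, adjusted p = 0.0082). Its call is the least firm of those named, since it was lost without any 1 of the 6 libraries compared (adjusted p of 0.011 to 0.034).

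The members not called numbered 17, with log2 fold changes from −0.04 to 0.26. Beside Mrpl10, Mrps12 and Mrps18c they were Mrps21, Mrps23, Mrps16, Mrps11 and Mrps26 of the small subunit and Mrpl33, Mrpl14, Mrpl52, Mrpl57, Mrpl18, Mrpl27, Mrpl41, Mrpl49 and Mrpl51 of the large subunit. Their level in MYC off was 85.2% to 106% of that in MYC on. Mrpl49 and Mrpl51, both mitochondria-specific, were the nearest to 0 (−0.02 ± 0.06 and −0.02 ± 0.08). Others were measured less precisely: Mrps21 had 26.1, 23.1 and 25.1 CPM in MYC on and 25.3, 20.2 and 17.8 in MYC off (0.26 ± 0.18, adjusted p = 0.21). The standard error ran from 0.06 to 0.18 in called and uncalled members alike, with medians of 0.07 and 0.09. A missed threshold therefore does not show that a member was the same at both MYC levels.

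Mrpl53 could not be tested. It had 0 counts in all 9 libraries, of 254517689 counts in all, for which counting error alone permits at most 0.0118 CPM. Its exons hold 790 bases, of which the distinct number shared with other genes was not determined. Overlaps added up per gene come to 710 bases, and a base shared with both Gm42688 and Ccdc142os may count for each. These genes had 3.21 ± 0.186 and 7.22 ± 0.726 CPM in MYC on and 5.15 ± 1.164 and 11.3 ± 0.894 in MYC off, and both were called lower in MYC on. How the counting assigned reads to shared bases is not given in the sources used here, so the 0 is a value of this table and does not tell whether the gene was transcribed.

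Shared exons touch more members than Mrpl53. In all, 33 of the 78 members overlap exons of another gene, and the library kit does not mark the strand, so reads of the overlapping genes cannot be told apart there. Among the leading members, Mrpl12 shares 200 bases with Gm16755 (log2 fold change 1.57), Mrps18b 638 bases with Gm16279 (1.45), Mrps27 506 bases with 6430562O15Rik (1.23) and Mrps30 623 bases with B430218F22Rik (1.09). These genes were all called higher in MYC on, beside members that were. The opposite occurred as well: Mrps25, called higher at 0.42 ± 0.06, shares 4590 bases with Nr2c2, which was called lower (−0.24). Of the 45 members that overlap no other gene, 38 were higher and none was lower, with a median log2 fold change of 0.77. In the 32 tested members with shared exons, 21 were higher and 1 was lower, with a median of 0.44.

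Bacterial descent was compared next. Of 46 members with a bacterial counterpart, 36 were called higher and none lower, and all 46 estimates were above 0 (median 0.70). Of 30 tested mitochondria-specific members, 22 were higher and 1 was lower (median 0.49). The medians of both groups lay well above that of all genes, and the difference between the groups was not tested. Within the large subunit the counts were 25 of 30 for bacterial counterparts (median 0.73) and 14 of 20 for mitochondria-specific members (median 0.49). In the small subunit they were 11 of 16 (0.67) and 8 of 10 (0.63).

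The step from MYC on to MYC intermediate was examined to ask how the genes respond to a partial loss of MYC. In it, 36 of 77 members had more reads in MYC on, 1 had fewer (Mrpl58) and 40 were not called. Of all genes, 17.2% were called higher and 17.4% lower. The median log2 fold change of the members was 0.26, beside −0.01 over all genes. The largest called differences were those of Mrps6 (0.76 ± 0.12), Mrpl34 (0.72 ± 0.09), Mrpl12 (0.72 ± 0.07), Mrpl16 (0.65 ± 0.07) and Mrps18b (0.65 ± 0.10), all of which led the wider comparison too. Libraries were above without overlap in 47 members, against 27.6% of all genes, and below in 3 members, against 26% of all genes.

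In the step from MYC intermediate to MYC off, where the remaining transgene is lost, 48 of 77 members were higher in MYC intermediate, against 29 were not called. Of all genes, 14.7% were called higher and 9.95% lower. No member was called lower with edgeR or with DESeq2. At an unadjusted p under 0.05 none was lower with either tool and 61 were higher, against 21.5% and 24.2% of all genes with edgeR. The median was 0.39, beside −0.01 over all genes. Mrps6 (1.25 ± 0.13), Mrps18b (0.95 ± 0.10), Mrps28 (0.88 ± 0.11), Mrpl34 (0.80 ± 0.09) and Mrpl12 (0.78 ± 0.07) had the largest called differences. MYC intermediate lay above MYC off without overlap in 56 members, against 21% of all genes, and below it in 1 member (Mrpl58), against 26.6% of all genes. Both steps share the MYC intermediate libraries and are given side by side.

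Of the 59 members higher in MYC on than in MYC off, 33 were called in both steps, 3 only in the step to MYC intermediate (Mrpl24, Mrpl4 and Mrps25), 15 only in the step to MYC off and 8 in neither. Mrps28 belonged to the 15, with 51.1, 43.8 and 49.2 CPM in MYC on, 42.1, 38.5 and 32.2 in MYC intermediate, against 22.4, 19.6 and 21.03 in MYC off. Its first step missed the threshold (0.34 ± 0.10, adjusted p = 0.014) although the libraries did not overlap. Being called in 1 step and not in the other does not show that the steps differ. That difference was tested by setting MYC intermediate against the log2 midpoint between the other groups. No member was called away from the midpoint with edgeR or DESeq2, beside 1.89% of all genes with edgeR. At an unadjusted p under 0.05 there were 9 members with edgeR and 8 with DESeq2, all above the midpoint. At that cutoff 13.7% of all genes were above it with edgeR, so that the members' count was no higher than the background. Without a cutoff, the edgeR estimates lay above the midpoint in 69 of 77 members and in 8262 of 14098 genes. Their medians were 0.07 and 0.03, and the difference between members and all genes was not tested.

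The place of MYC intermediate between the extremes was described as log2(on/intermediate) over log2(on/off), which is 0 at the MYC on level and 1 at the MYC off level. Over the 46 members called higher with a log2 fold change above 0.5, its median was 0.44 (quartiles 0.37 and 0.47). The value was 0.49 over all 2843 genes chosen in that way. Single members ranged from 0.02 for Mrps36 to 0.66 for Mrpl24, while Mrpl58 stood at 0.88. In the plain mean, the 59 members called higher kept a median of 79.2% of their MYC on level in MYC intermediate, against 59.6% in MYC off.

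**Figure D3:**
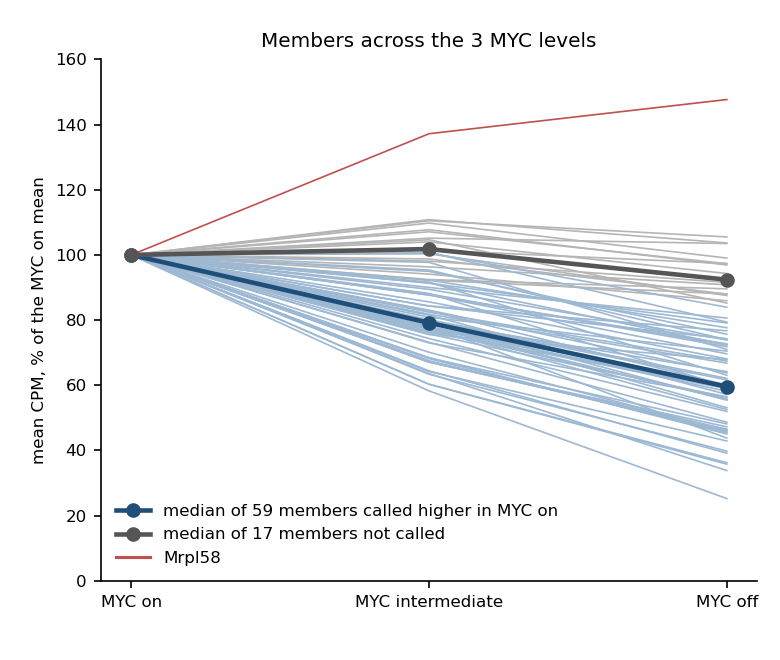
Each thin line is 1 of 77 members, with its mean CPM at the 3 MYC levels as a percentage of its MYC on mean. The median of the 59 members called higher passes through 79.2% and 59.6%, that of the 17 members not called through 102% and 92.4%, and Mrpl58 climbs to 137% and 148%.

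Levels differed among the members far more than between the groups. On the TPM scale, which the authors computed per gene length, the mean over all libraries was highest for Mrpl18 (421), Mrpl28 (356) and Mrpl12 (239), all in the large subunit. The lowest values above 0 were those of Mrpl32 (10.3), Mrpl33 (13.1) and Mrpl23 (14.7), large subunit genes too. Mrpl18 and Mrpl28 could not be put in order in MYC on (417 ± 25.9 and 418 ± 11.6 TPM), and in MYC off Mrpl18 was above Mrpl28 by more than the spread (402.1 ± 10.4 and 289 ± 18.4 TPM). Mrpl12 ranked 3 in MYC on (367 ± 18.9 TPM) and 13 in MYC off (132 ± 4.05 TPM). The ratio of the highest to the lowest detected member was 34.1 in MYC on, 40.1 in MYC intermediate, against 52.3 in MYC off, and the median member stood at 90.7, 76.3 and 59.2 TPM. Deposited gene lengths ran from 607 to 8631 bases and went against the mean TPM over the 77 members (Spearman's rho −0.70, a description across genes that share the same libraries), so that the order rests in part on the lengths used.

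Shorter members were also the less precise ones. The median standard error of the log2 fold change was 0.09 in the 38 members below the median length of 2255 bases and 0.07 in the other 39. Of the shorter members 12 were not called, and of the longer ones 5. In MYC intermediate the coefficient of variation between libraries had a median of 8.47% in the shorter and 4.93% in the longer members. Mrps21, with a length of 739 bases, held 33.6, 25.3 and 18.9 CPM in MYC intermediate. Exceptions occurred: Mrpl23, with 4883 bases, held 28.4, 21.9 and 15.3 CPM there. The part of length in the calls was not tested.

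Some mitoribosome proteins have other names and fall outside the rule. All 5 of these genes were higher in MYC on: Ptcd3 (208 ± 13.4 against 78.4 ± 3.22 CPM in MYC off, log2 fold change 1.44), Gadd45gip1 (0.91), Chchd1 (0.84), Dap3 (0.43) and Aurkaip1 (0.26). With them and without Mrps36, 63 of 81 tested genes for known mitoribosome proteins were higher. Ptcd3 is a small subunit protein with repeats that bind RNA, and Gadd45gip1 belongs to the large subunit.

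The machinery around the mitoribosome was read from lists written by hand. Of 28 genes for mitoribosome assembly and rRNA modification, 17 were higher and none was lower, with a median of 0.40, and C1qbp, a matrix protein that binds RNA, led with 318 ± 24.4 CPM in MYC on and 37.5 ± 2.17 in MYC off (log2 fold change 3.12). Noa1, a GTPase needed for the small subunit, and Mrm1, an rRNA methyltransferase, followed with 1.72 and 1.66. Among 16 mitochondrial translation factors and regulators, 14 were higher and none was lower (median 0.56), led by Lrpprc, which stabilises mitochondrial mRNAs (1.43), and the elongation factors Gfm1 (1.19) and Tsfm (1.12). Both lists lay, like the members, above the median of all genes. Of 20 genes for mitochondrial aminoacyl-tRNA synthesis, 13 were higher and 1, the alanyl-tRNA synthetase Aars2, was lower (−0.61), with a median of 0.53. The leading genes were Ears2 (1.53), Yars2 (1.37) and Mars2 (1.30), which charge tRNAs with glutamate, tyrosine and methionine.

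Of 10 genes for mitochondrial transcription and genome maintenance, 8 were higher and 1 was lower (median 0.77). The largest difference was that of the topoisomerase Top1mt, with 74.1 ± 2.89 CPM in MYC on and 12.9 ± 0.776 in MYC off (log2 fold change 2.55), ahead of the helicase Twnk (1.20) and the single-strand binding protein Ssbp1 (1.15), whereas the polymerase subunit Polg was lower (−0.47). Among 12 markers of mitochondrial mass 11 were higher, with a median of 1.07, led by the chaperone Hspa9 (2.32) and the prohibitins Phb (2.27) and Phb2 (1.88). The median of the members, 0.61, was thus below that of the mass markers. Medians of the other lists of nuclear genes for mitochondria ran from 0.40 for assembly to 0.84 for mitoribosome proteins with other names. Cytosolic ribosomal protein genes had a median of 1.41, with 78 of 81 higher and 1 lower, and differences between lists were not tested. T cell markers went the other way, with 15 of 16 lower in MYC on and a median of −1.14, most of all Cd2 (−3.09), Trac (−2.54) and Ptprc (−1.54). Of the myeloid markers, Itgam was lower (−2.46) and Csf1r higher (0.38).

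**Figure D4:**
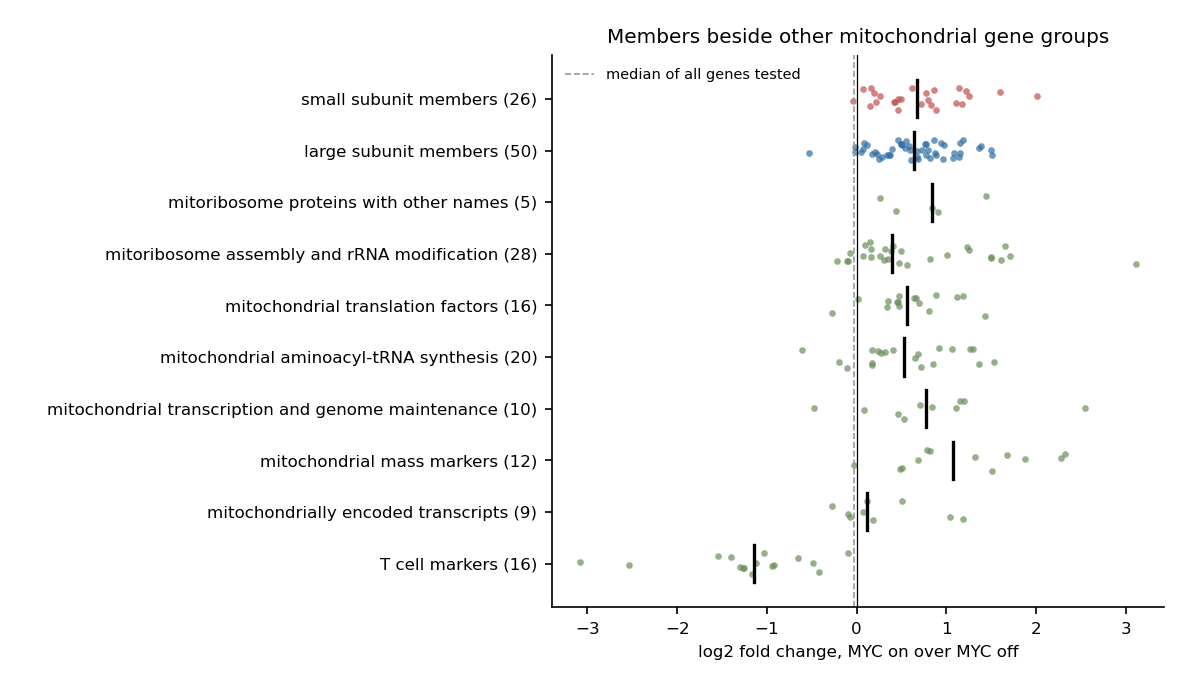
Each point is the log2 fold change of MYC on over MYC off of 1 tested gene, with the number of genes beside the name of the group and a black bar at its median. The medians are 0.67 and 0.64 for the small and large subunit members, 1.07 for the mass markers, 0.11 for mitochondrially encoded transcripts and −1.14 for T cell markers, and the dashed line marks the median of all genes at −0.03.

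Counts of the RNAs that the mitoribosome contains or translates were mixed between the extremes of MYC. Of 15 mitochondrially encoded transcripts 9 were tested, 3 were higher in MYC on and 1 was lower. The small subunit rRNA mt-Rnr1 had 2.74 ± 0.842 CPM in MYC on and 2.42 ± 0.640 in MYC off, and the large subunit rRNA mt-Rnr2 had 68.4 ± 10.3 and 74.7 ± 2.98, neither of them called. The libraries were primed at poly(A) tails, which limits what they show of rRNAs. mt-Nd1 (163 ± 8.07 against 73.2 ± 1.11 CPM) and mt-Nd2, which encode subunits of complex I, and mt-Cytb of complex III were higher by 1.18, 1.04 and 0.51 on the log2 scale. mt-Co1 of complex IV was lower (−0.28 ± 0.06). Between MYC intermediate and MYC off, the same 3 transcripts were higher in MYC intermediate and none was lower, and all 9 estimates were above 0 (median 0.22). All 9 also lay above the midpoint (median 0.21), none of them called there. The other 6 transcripts had under 0.2 CPM, among them mt-Nd3, mt-Nd4l and mt-Atp8 at 0, and mitochondrial transcripts took 0.112%, 0.122% and 0.107% of counts in MYC on, MYC intermediate and MYC off. How the counting assigned reads of mitochondrial transcripts is not given in the sources used here. Their counts are therefore values of this table, and a 0 does not tell whether the transcript was made.

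Many mitoribosome genes start close to another gene on the opposite strand, which places 2 promoters back to back. Starts were here those of the genes in GENCODE M21, which can differ from the RefSeq starts of the promoter windows. A divergent protein-coding neighbour with starts at most 1000 bases apart, or overlapping by at most 200 bases, was found for 23 of 78 members (29.5%). Of all 22028 protein-coding genes, expressed in these cells or not, 7.92% had such a neighbour. The share among the genes tested for expression was not determined. Of the 22 neighbours tested, 11 were higher in MYC on, 5 were lower and 6 were not called, with a median log2 fold change of 0.31. Among all genes tested, 27.4% were called higher and 27.5% lower. In 8 pairs both genes were higher. Mrps27 and Ptcd2, which encodes a mitochondrial RNA-binding protein, are such a pair with starts 81 bases apart (1.25 ± 0.07 and 1.05 ± 0.07). Of these 8 pairs, Mrpl44 with Wdfy1 and Mrpl21 with Ighmbp2 overlap at their starts. They share 126 and 117 exon bases, where reads cannot be told apart. Outside the 8, Mrpl36, Mrpl27 and Mrps7 also share exon bases with their neighbours.

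In 3 pairs the genes went opposite ways. Mrps18b starts 45 bases from Ppp1r10, a regulator of protein phosphatase 1 in the nucleus, which was lower in MYC on (100.3 ± 5.64 against 126 ± 3.88 CPM, log2 fold change −0.29 ± 0.06). Mrps34 and Eme2, a DNA repair gene with its start 29 bases away, differed by 1.14 ± 0.07 and −0.67 ± 0.07. Exons of Mrps34 hold 2064 bases, and its overlaps with Mapk8ip3 and Nme3, added up per gene, come to 2072. Mapk8ip3 was not called (0.21) and Nme3 had 0 counts, and reads in the shared bases cannot be told apart. Mrpl2 and the kinesin light chain gene Klc4 differed by 0.86 ± 0.07 and −0.61 ± 0.11. Each of these 3 neighbours was called against the direction of its member. They were 3 of the 15 neighbours of members called higher, while 27.5% of all genes tested were called lower. Opposite pairs were thus no more frequent than lower calls among genes in general.

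The 8 members of such pairs that were not called had neighbours of all kinds. Mrpl49 (81.6 ± 1.55 CPM in MYC on and 84.4 ± 3.62 in MYC off) lies 59 bases from Fau, which encodes a protein of the cytosolic small subunit and was higher in MYC on (0.86 ± 0.15). Mrpl51 lies 100 bases from the condensin gene Ncapd2, which was lower (343 ± 18.5 against 708 ± 32.7 CPM, −1.01 ± 0.05). Mrpl27 and Mrpl41 had neighbours called higher (Eme1 and Pnpla7), Mrpl57 had 1 called lower (Ska3), and with Mrps12 and Mrps18c the neighbours Sars2 and Helq were not called either. Lrrc46, beside Mrpl10, had too few counts to be tested. Within the members, Mrpl46 and Mrps11 overlap each other by 173 bases, and only Mrpl46 was called (0.49 ± 0.07, against 0.15 ± 0.08).

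**Figure D5:**
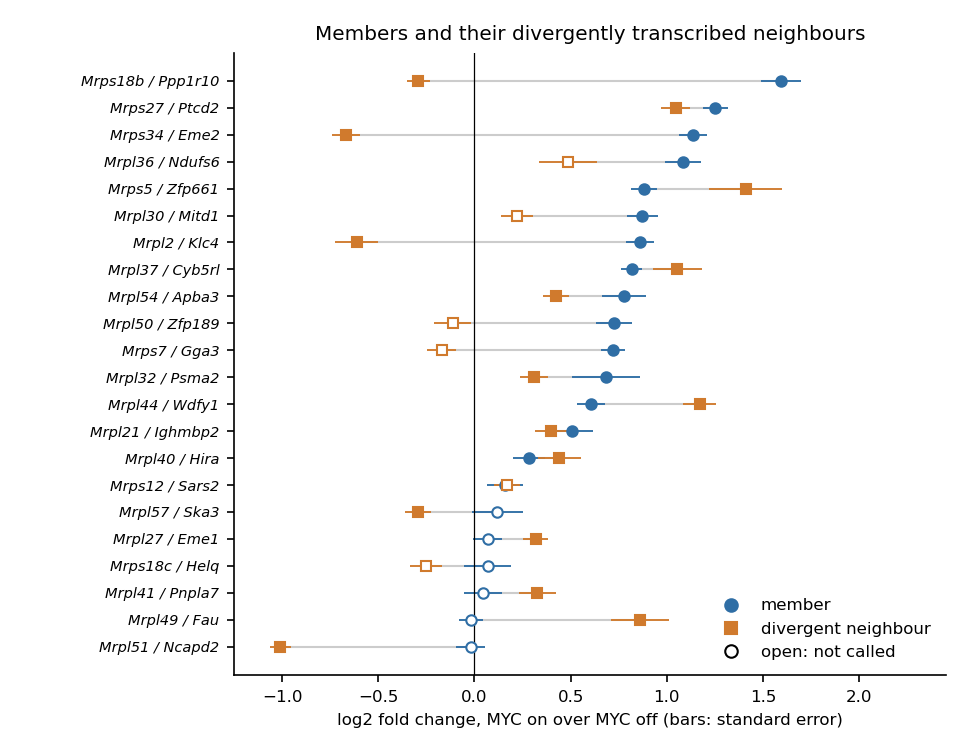
For 22 members and their divergent neighbours the log2 fold change of MYC on over MYC off is plotted with its standard error, ordered by the member, with open symbols for genes not called. Mrps18b, Mrps34 and Mrpl2 lie right of 0 with their neighbours on the left, at −0.29, −0.67 and −0.61, and Mrpl51 lies at 0 beside Ncapd2 at −1.01.

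Promoter motifs other than the E-box were also searched on both strands of the same windows. ATGGCGG, the core of the YY1 site, was found in 18.8% of the 69 members, against 4.69% of all genes with a window and 10.1% of those tested. CCGGAAGT, a site of ETS factors, was found in 17.4%, against 4.31% and 9.95%. GCGCATGC, from the site of NRF1, was found in 11.6%, against 3.05% and 6.29%. These shares were above those of promoters at large, while that of the E-box was not. Among 63 cytosolic ribosomal protein genes with a window, the YY1 and ETS letters were each found in 17.5%. The NRF1 letters were found in 4.76% of these 63 genes and the E-box in 9.52%. The YY1 and ETS shares of the members were thus near those of the cytosolic genes. The ETS site was present in 5 of 50 members called higher (10%) and in 7 of 18 members not called or lower (38.9%), and the median log2 fold change was 0.23 with it and 0.64 without it. For the E-box the medians were 0.82 in the 5 members with it and 0.55 in the 63 without it. The YY1 letters went the other way from ETS, with 10 of 50 members called higher (20%) and 2 of 18 others (11.1%). Their medians were 0.79 in the 12 tested members with them and 0.515 in the 56 without them. For NRF1 the counts were 6 of 50 (12%) and 2 of 18 (11.1%), and both medians were 0.59. Differences between members with and without a motif were not tested. A match to these letters is no evidence of binding, and no match says only that the letters are not in this window.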

How the data were processed

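RNA of 9 libraries was copied with oligo(dT) priming (SMART-Seq v4) and sequenced from Nextera XT libraries, which carry no strand information. In the submitters' processing notes stand cutadapt 1.16, STAR 2.5.4b, featureCounts and mm10. The annotation release and the strand setting were not given in the sources used here. The authors deposited raw counts per gene, which were used for all tests, and TPM values, which were used only for levels between genes.

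The main test was edgeR 4.0.16 (quasi-likelihood, in R 4.3.3), scaled by TMM, on the 14098 genes that passed its default filter of low counts. A common model of the 9 libraries held only the group. Two-sided p-values were corrected across the genes tested (Benjamini-Hochberg), and a call required an adjusted p under 0.01. The SE was derived from the log2 fold change and its F statistic. The fit was tested on simulated data. DESeq2 1.42.0, other scalings and filters, a replicate block, thinned counts and fits without each library were alternatives. Exact permutation tests of single genes cannot go below 0.1 with 3 libraries against 3 and are not quoted.

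Replicate numbers were checked as pairs over 8887 genes. MYC on and MYC off libraries with 1 number deviated from their group means together (r = 0.42, 0.29 and 0.26). Those with unequal numbers had r from −0.45 to 0.16. With 3 libraries per group these values do not establish a pairing, and the meaning of a number is not given in the labels. Symbols, positions and exons came from GENCODE M21, which matched 53274 identifiers, and promoter windows from RefSeq. Deposited lengths equalled the M21 exons in 71 of 78 members. The limit given for Mrpl53 covers counting error only, while each SE and SD covers the spread among these libraries.

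Members, roles and lists (12 lists, 151 genes, all matched) were chosen with earlier results of these data known. The genes named are the 10 members called higher with the largest change and at least 10 CPM, all members called lower, not called or not tested, the 5 largest changes of each step, the 3 highest and lowest in TPM, members with special roles, and up to 3 called genes of each list with at least 5 CPM. Pairs, overlaps and further examples were chosen after their values were seen.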

Additional observations from a re-analysis of the deposited data

How the results depend on the processing

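Under each alternative run, the direction of the median log2 fold change of the members was kept in all 3 comparisons, and no called member changed sign. Over the settings that leave out a library, members called higher ran from 54 to 59 for MYC on against MYC off (59 with all libraries), from 30 to 40 for MYC on against MYC intermediate (36) and from 37 to 53 for MYC intermediate against MYC off (48). The medians ran from 0.59 to 0.64, from 0.23 to 0.29 and from 0.33 to 0.47. The value of 0.47 came without MYC off replicate 1 and lay above the main 0.39 by more than the spread between libraries. DESeq2 called the same 60 members for MYC on against MYC off. Counting only members that share no exon with another gene gave 38 called higher for MYC on against MYC off and 23 for MYC on against MYC intermediate, of 45. With no count filter 1 member, Mrpl58, was called against the midpoint, where the main fit called none.

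With the replicate block, which takes the numbers as pairs, 59 members were higher and 1 was lower in MYC on than in MYC off, the same as without it. The block gave 40 in place of 36 and 55 in place of 48 in the other comparisons. Over all genes checked, libraries with 1 number had r of 0.15, −0.22 and −0.19 for MYC on with MYC intermediate. For MYC intermediate with MYC off, r was 0.40, 0.02 and 0.09. Of the 77 members with counts, 44 in MYC on, 42 in MYC intermediate and 55 in MYC off were highest in replicate 1. The same count over all genes was not made, so whether this order is particular to the members cannot be told. The part of this order in the counts of calls was not tested.

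Signs near 0 were not firm. With only the 6 libraries compared, Mrpl49 and Mrpl51 came to 0.0050 and 0.0021. Without 1 library, Mrpl49 ran from −0.054 to 0.034, Mrpl51 from −0.093 to 0.053, Mrps18c from −0.033 to 0.17 and Mrps26 from −0.074 to 0.0014. Of the 60 calls between MYC on and MYC off, 5 were lost in at least 1 fit without a library: those of Mrps36 (7 fits, and with library size alone or thinned counts), Mrps33 (5), Mrpl32 (4), Mrpl40 (4, and with library size alone) and Mrpl43 (1). Adjusted p in the fits that lost them ran from 0.010 to 0.053. The cause was not tested.

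With 3 libraries per group, the smallest difference called in a member between the extremes was 0.28 on the log2 scale, that of Mrpl40. The number of lines behind the libraries is not given in the sample titles. Reads in shared exons, the annotation used and RNA per cell limit single members, and levels between members rest on deposited lengths.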
